A study of Homo sapiens with 21 samples.

Results

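The inhibitor of DNA binding genes ID1, ID2, ID3 and ID4 and the feedback genes SMAD6 and BAMBI are familiar readouts of bone morphogenetic protein (BMP) signaling. They were taken by gene symbol from the table of 58735 genes, across 7 groups of libraries, and all 6 were found. Of these, 5 passed a filter on low values that 14686 genes passed, which was a mean of at least 0.5 FPKM (fragments mapped to a gene, relative to its length and to the size of the library) over the 21 libraries. ID4 did not pass.

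RNA was sequenced from MDA-MB-453, a human breast cancer cell line of luminal character labelled as wild type, with 3 libraries in each group. Cells were left untreated (control), or were treated for 24 h with 10 mM calcium, with 10 μM cadmium, with 5 μM GSK4716, or with 10 μM DES. GSK4716 is described by the study as an agonist, and DES (diethylstilbestrol, a synthetic estrogen) as an antagonist, of the orphan nuclear receptor ESRRB. The remaining 2 groups received 10 μM DES and, 3 h later, 10 mM calcium or 10 μM cadmium for 24 h. All cells had been moved to medium with charcoal-stripped serum before treatment; calcium, with or without DES, and GSK4716 were then given in medium without serum, and cadmium, with or without DES, in medium with 1% stripped serum. The labels do not give the medium of the control group or say which of these media the DES group had, so treatment and medium cannot be told apart in comparisons with them. The labels do not say whether the 3 libraries of a group came from separate cultures, so p-values measure only the spread between these libraries, which may be technical.

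BMP ligands bring together type I and type II receptor kinases, which phosphorylate SMAD1, SMAD5 and SMAD9; these enter the nucleus with SMAD4 and switch on a small set of early genes, the ID genes among them. ID proteins are helix-loop-helix proteins without a DNA-binding region: they pair with E proteins such as TCF3 and TCF12 and keep them, and the tissue-specific factors that need them as partners, off DNA. In mammary epithelium ID1 is known for holding back differentiation. SMAD6 is an inhibitory SMAD that blocks SMAD1 and SMAD5, and BAMBI is a membrane pseudoreceptor without a kinase domain that competes with type I receptors, so that both are targets of the pathway and brakes on it.

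A stretch upstream of ID1 is a well-known BMP response region, in which SMAD proteins bind a GC-rich motif and the SMAD box. It is printed first, followed by the 250 bases before the start of the genes with the largest rises under DES, ID3 and BAMBI. All are 5′ to 3′ on the strand of the gene, from GRCh38.p14, with gene starts from RefSeq. For ID3 and BAMBI the genes behind the FPKM start further upstream than in RefSeq. The printed ID3 stretch lies inside that gene, and the BAMBI stretch does so from base 28677342 on. Capitals mark GGCGCC, the SMAD box CAGAC or its reverse complement GTCTG, and a composite motif, which is GGCGNC, then NNNNN, then GTCT.
ID1, chr20:31604309-31604429, plus strand, 980 to 860 bases before the start: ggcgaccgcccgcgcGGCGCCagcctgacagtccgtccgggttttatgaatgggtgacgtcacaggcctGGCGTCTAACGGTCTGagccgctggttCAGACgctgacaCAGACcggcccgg
ID3, chr1:23559502-23559751, minus strand, 250 to 1 bases before the start: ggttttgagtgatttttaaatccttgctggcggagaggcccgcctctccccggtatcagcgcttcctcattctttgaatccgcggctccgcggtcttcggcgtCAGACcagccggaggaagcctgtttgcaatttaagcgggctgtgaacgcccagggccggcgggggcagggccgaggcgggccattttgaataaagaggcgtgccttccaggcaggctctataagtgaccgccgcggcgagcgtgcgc
BAMBI, chr10:28677271-28677520, plus strand, 250 to 1 bases before the start: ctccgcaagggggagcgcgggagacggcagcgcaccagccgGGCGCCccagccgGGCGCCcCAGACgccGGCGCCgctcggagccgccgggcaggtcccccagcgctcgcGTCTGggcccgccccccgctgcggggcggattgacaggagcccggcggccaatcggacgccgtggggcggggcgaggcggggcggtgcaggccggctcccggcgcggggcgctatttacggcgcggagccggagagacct

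Motifs were searched on both strands in 15843 promoters, each 250 bases before to 50 after a start, and in 15837 windows of the 2000 bases before a start. All 6 genes matched an entry. The composite motif, whose spacing between its GC-rich and GTCT parts is that of BMP-responsive elements, was found in 0.467% of promoters and 0.96% of upstream windows. Of the 6 genes it lay only in the ID1 upstream window, at 911 bases before the start, as GGCGTCTAACGGTCT. GGCGCC was present in 25.2% of promoters and 44.5% of upstream windows. The BAMBI promoter held 3 copies, at 209, 196 and 181 bases before the start, and its upstream window held 5. The SMAD6 upstream window held 4 copies, those of ID1, ID2 and ID4 held 1 each, and that of ID3 held 0. CAGAC occurred in 44.1% of promoters and in 96.7% of upstream windows, so its presence in every upstream window of the 6 genes is near the background; copies counted there may overlap the composite motif. TNAAGGTCA, the extended half-site that estrogen-related receptors bind, was in 0.638% of promoters and 7.56% of upstream windows. It was in neither window of any of the 6 genes, which is near the background at such low shares. These are matches of letters in these windows and say nothing of whether a factor was bound.

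Each library held 14435925 to 28424805 fragments on genes (median 18314738), recovered from the deposited values, and no library was a copy of another. All 9 luminal markers had a median above 1 FPKM (17.1 to 641 FPKM), while none of 3 basal, 3 endothelial and 3 leukocyte markers did; of 4 fibroblast markers COL1A1 alone passed that level, at 12.5 FPKM. The cadmium-inducible metallothionein gene MT2A stood at 1840 to 10176 FPKM in the libraries with cadmium and at 24.1 to 1117 FPKM in the others, as labelled. Among the others, DES alone stood at 297 to 792 FPKM and control at 24.1 to 92.7 FPKM. The share of fragments on mitochondrial genes was 1.97% to 5.31% in libraries with DES and 4.88% to 9.75% in those without; its part in the DES results that follow was not tested. In bulk RNA, fewer cells that express a gene and less RNA of it per cell cannot be told apart.

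The levels of the 6 genes spanned more than 3 orders of magnitude. Per kilobase of gene, ID2 was the most abundant, with a mean of 64.4 FPKM over the 21 libraries, followed by BAMBI at 52.3, ID3 at 25.3, ID1 at 6.55 and SMAD6 at 3.25 FPKM. ID4 averaged 0.0279 FPKM. The spread across libraries followed another order: the highest library was 19-fold above the lowest for ID3, 12.7-fold for ID1, 8.39-fold for SMAD6, 4.9-fold for BAMBI and 4.47-fold for ID2.

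**Figure D1:**
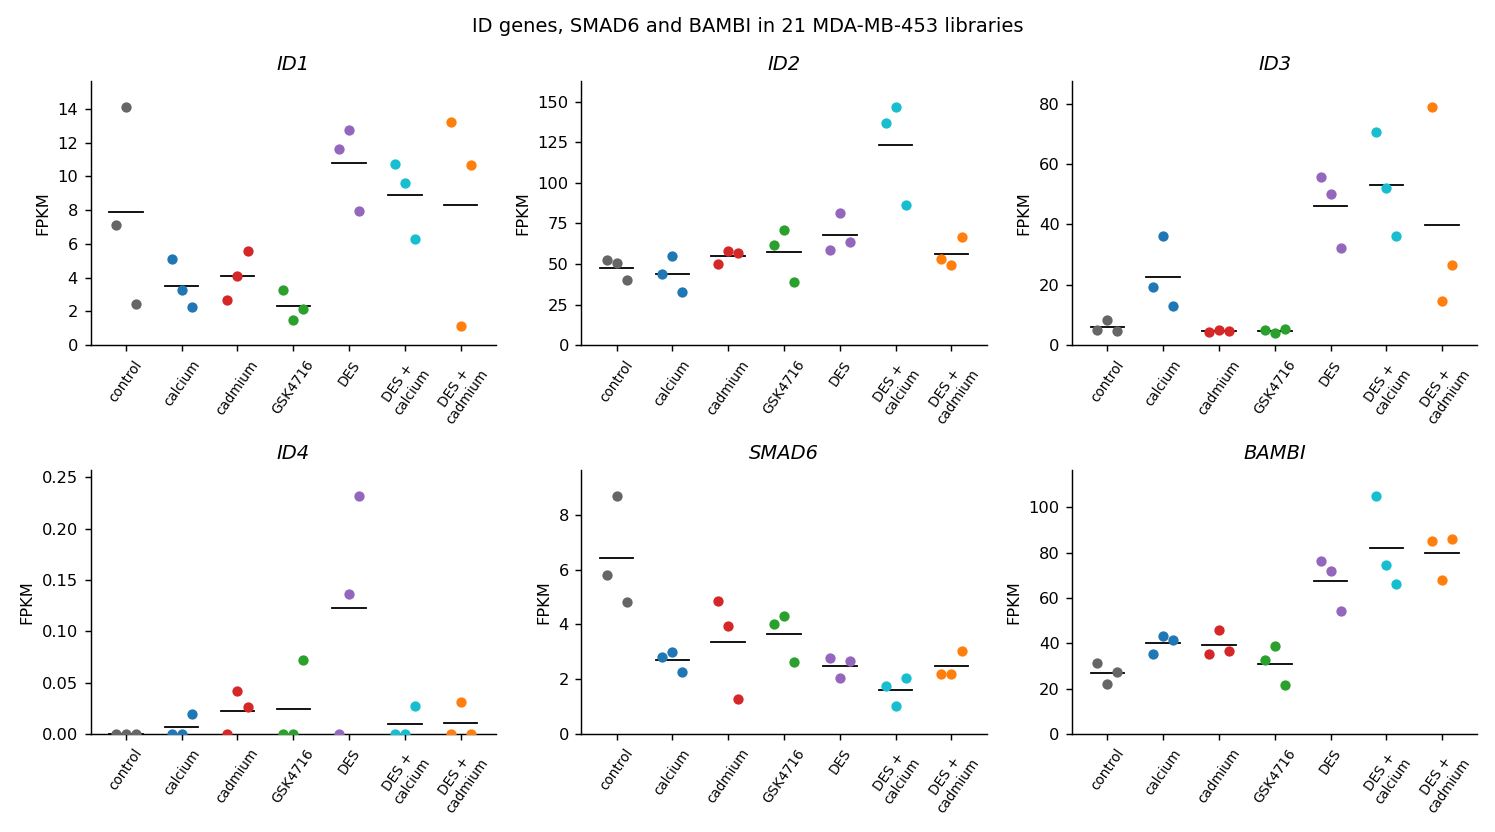
FPKM (vertical axis, linear, a scale of its own for each gene) of the 6 genes in each of the 21 libraries, with replicates 1 to 3 from left to right in each group and a line at the group mean. BAMBI separates the libraries with DES (54.2 to 105 FPKM) from those without (21.4 to 45.7 FPKM), ID3 is also above control with calcium alone (12.9 to 36.2 FPKM), and DES with cadmium replicate 2 lies low for ID1 (1.11 FPKM) and ID3 (14.7 FPKM).

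ID3 (ENSG00000117318, GRCh38 chromosome 1, 23557918 to 23559794, minus strand) showed the largest response of the 6 genes. It stood at 5.01, 8.35 and 4.82 FPKM in control replicates 1 to 3, and at 55.7, 50.2 and 32.2 FPKM with DES. Every DES library was therefore above every control library. The difference was 7.53-fold, a log2 fold change of 2.91 (SE 0.29, adjusted p = 0.00129, limma with Benjamini-Hochberg adjustment, 3 libraries against 3). In that comparison ID3, BAMBI and SMAD6 passed an adjusted p of 0.05 among the 5 genes tested, against 29.6% of all genes. The median log2 fold change was 0.74 over the 5 and 0.05 over all genes. Since the members were chosen with earlier results of these data known, such contrasts, here and below, only describe them.

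The other treatments divided for ID3. With calcium alone it was at 19.2, 36.2 and 12.9 FPKM, again with no overlap with control. The log2 fold change was 1.81 (SE 0.41), but its adjusted p of 0.0567 missed the threshold. It passed under 4 of the 8 alternatives that kept all libraries, namely a filter at 2 FPKM (adjusted p = 0.029), all 7 groups in 1 fit (0.0294), a replicate block (0.0439) and limma-voom (0.0268). Leaving out any 1 of the 6 libraries gave no call (0.052 to 0.192). Cadmium and GSK4716 gave levels like those of the control: 4.53, 5.06 and 4.81 FPKM with cadmium, and 4.91, 4.14 and 5.44 FPKM with GSK4716. Neither difference from control passed the test (log2 fold change of -0.29, 95% interval -0.87 to 0.30, for cadmium, and of -0.28, interval -0.87 to 0.31, for GSK4716). Set directly against each other, a comparison added after the values had been seen, the calcium libraries were 4.26-fold above the cadmium libraries (log2 fold change 2.09, SE 0.36, adjusted p = 0.0456), in which 2.44% of all genes were called. That call was lost with any of the 6 libraries left out (adjusted p 0.0777 to 0.159). The calcium and cadmium groups also differed in serum, as described above.

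On top of DES, the metals moved ID3 by less than the spread between libraries. DES with calcium gave 70.5, 52.1 and 36.3 FPKM and DES with cadmium 78.7, 14.7 and 26.4 FPKM, both ranges overlapping that of DES alone. The log2 fold changes from DES were 0.19 (95% interval -0.57 to 0.94) and -0.52 (interval -1.97 to 0.93). Without replicate 2 of DES with cadmium the second change was 0.0250 (SE 0.53, beside 0.61 with it). Against the same metal without DES, the FPKM of ID3 was higher in every library. In calcium the margin was narrow, at 36.3 FPKM (DES with calcium replicate 3) against 36.2 FPKM (calcium replicate 2). On total fragments these libraries swap order, so the groups overlap. The log2 fold change was 1.29 in calcium (SE 0.41, adjusted p = 0.0493) and 2.68 in cadmium (SE 0.58, adjusted p = 0.0415). Both of these passed narrowly. The calcium call remained only without calcium replicate 2 (adjusted p = 0.0245) and rose to between 0.0559 and 0.145 without any other library, and it was also lost when libraries were scaled by all fragments on genes (log2 fold change 1.10, adjusted p = 0.0706). The cadmium call was kept only without DES with cadmium replicate 1, at a smaller log2 fold change of 2.02 (SE 0.29), or replicate 2, at 3.22 (SE 0.48), with adjusted p of 0.0995 to 0.172 otherwise.

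For ID3 the effect of calcium with DES minus its effect without DES was -1.62 on the log2 scale (95% interval -2.80 to -0.44, unadjusted p = 0.0115, adjusted p = 0.123), which failed the correction. For cadmium the same term was -0.23 (interval -1.75 to 1.29). The order of group means ran from cadmium (4.80 ± 0.27 FPKM, SD, n = 3) through GSK4716 (4.83 ± 0.66) and control (6.06 ± 1.99) to calcium (22.7 ± 12.0), DES with cadmium (40.0 ± 34.1), DES (46.0 ± 12.3) and DES with calcium (53.0 ± 17.1), and the only neighbours whose libraries did not overlap were control and calcium.

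ID2 (ENSG00000115738, chromosome 2, 8678845 to 8684453, plus strand) was the most abundant ID gene in every group and, by the measure above, the steadiest. It stood at 52.2, 50.5 and 40.2 FPKM in control and at 43.8, 54.7 and 32.8 FPKM with calcium. Cadmium gave 50.0, 57.8 and 57.0 FPKM and GSK4716 61.6, 71.0 and 39.1 FPKM. None of these 3 treatments gave a call for ID2, with log2 fold changes of -0.14, 0.21 and 0.23 and adjusted p of 0.387 to 0.747. With DES it was at 58.4, 81.3 and 63.7 FPKM, above all controls, but the log2 fold change of 0.50 (SE 0.19) had an adjusted p of 0.0838; without DES replicate 1 that p was 0.0487.

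The highest ID2 levels came with DES and calcium together, at 137, 146 and 86.3 FPKM. All 3 libraries exceeded the 18 others, of which the highest was at 81.3 FPKM; 1.91% of all genes showed this. Against calcium alone ID2 was 2.8-fold higher (log2 fold change 1.49, SE 0.27, adjusted p = 0.00857), a call kept with any of the 6 libraries left out and lost in a fit without the filter on low values (adjusted p = 0.132). Against DES alone it was 1.79-fold higher, a log2 fold change of 0.84 with an unadjusted p of 0.0141 and an adjusted p of 0.273. That comparison called 0.136% of all genes and none of the 5 (limma; none with limma-voom), and ID2 was the 1 with an unadjusted p under 0.05, as were 13.2% of all genes. The term for calcium with DES against calcium without it was 0.98 (95% interval 0.23 to 1.74, adjusted p = 0.14), of opposite sign to that of ID3. DES with cadmium gave 53.0, 49.1 and 66.6 FPKM, a log2 fold change from cadmium alone of 0.02 (95% interval -0.48 to 0.53). ID2 overlaps the antisense gene ID2-AS1, listed at no more than 2.7 FPKM, and since the library protocol gives directional and non-directional synthesis as alternatives, their reads may not have been separated.

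ID1 (ENSG00000125968, chromosome 20, 31605283 to 31606515, plus strand) varied widely among the controls, and no comparison with them was called. The control libraries were at 7.10, 14.1 and 2.45 FPKM, a wider range than in any other group except DES with cadmium, at 13.2, 1.11 and 10.7 FPKM. The lowest of these values rests on 19 fragments. The log2 fold change with DES was 0.74 (95% interval -0.62 to 2.10) and that with calcium -0.89 (interval -2.47 to 0.70). Both turned on the controls: without control replicate 3 they were 0.0765 and -1.55, and without control replicate 2 they were 1.31 and -0.31. DES alone gave 11.7, 12.7 and 7.93 FPKM, calcium 5.09, 3.25 and 2.28 FPKM, and DES with calcium 10.7, 9.63 and 6.26 FPKM. The last 2 groups did not overlap, and the rise with DES in calcium was 2.53-fold (log2 fold change 1.34, SE 0.34, adjusted p = 0.0249). It was lost without calcium replicate 2 or replicate 3, or without DES with calcium replicate 1 or replicate 2 (adjusted p 0.0645 to 0.0848), and in a fit of all 7 groups together (adjusted p = 0.146).

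Cadmium gave ID1 levels of 2.68, 4.11 and 5.58 FPKM and GSK4716 levels of 3.30, 1.51 and 2.14 FPKM, the lowest group mean of this gene. The log2 fold change with GSK4716 was -1.47 (95% interval -3.05 to 0.11, adjusted p = 0.329), with 2 of the 3 libraries below the lowest control, and without control replicate 3 it was -2.13. No gene at all was called with GSK4716 at an adjusted p under 0.05 (0% of 14686; limma), while limma-voom on the recovered fragments called 49, none of the 5 among them, and 16.4% of all genes had an unadjusted p under 0.05. Of the 5 genes here SMAD6 did. For DES with cadmium against cadmium the ID1 difference was 0.46 (interval -1.72 to 2.65). It turned to 1.57 (adjusted p = 0.0636) without replicate 2 of DES with cadmium and to -0.16 without replicate 1.

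ID4 (ENSG00000172201, chromosome 6, 19837386 to 19840684, plus strand) was near the detection limit. The controls held 0 fragments in all 3 libraries, and the 18 treated libraries held 0 to 9. The highest values came with DES alone, at 0, 0.137 and 0.232 FPKM, or 0, 6 and 9 fragments. GSK4716 replicate 3 held 4 fragments and every other library at most 2. Since 0 fragments allow up to 3, most of these values cannot be told from those of the controls at this depth, and no comparison called it in a fit without the filter (adjusted p 0.67 to 1).

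**Figure D2:**
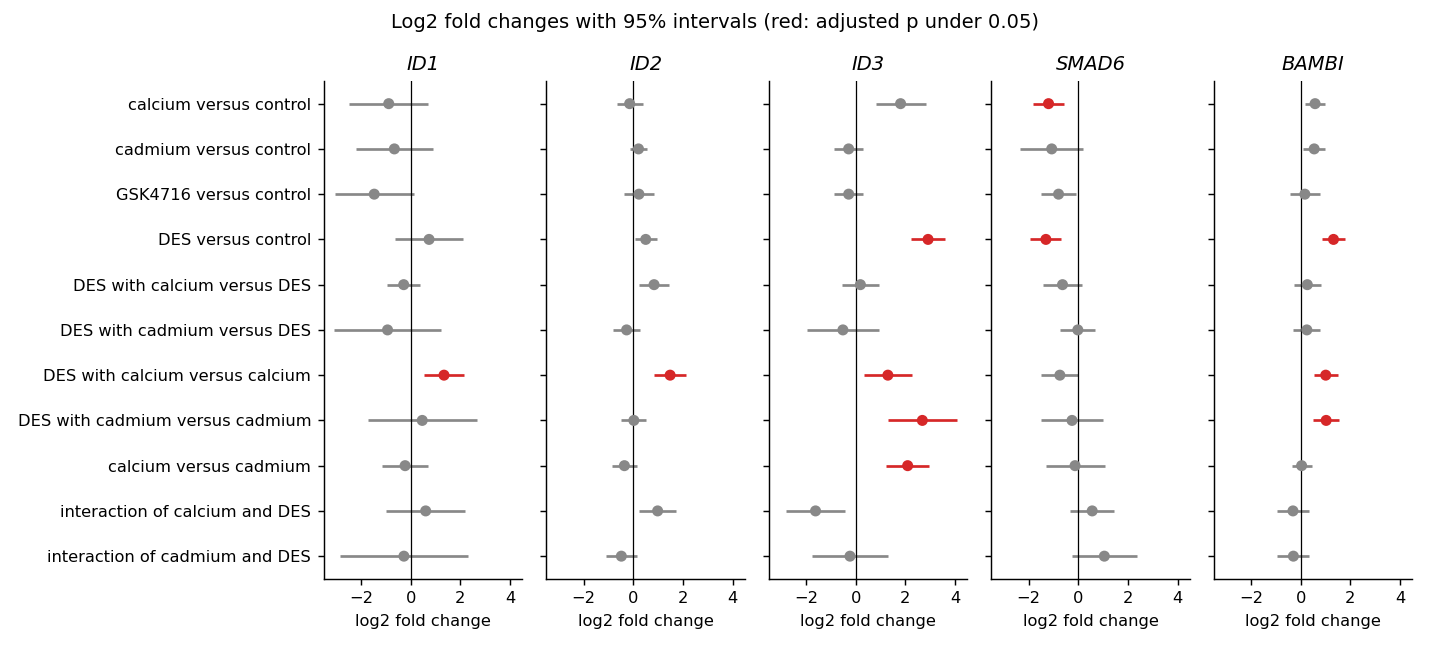
Log2 fold changes (horizontal axis; points) with 95% intervals (lines) of the 5 tested genes in 9 comparisons of groups and 2 interaction terms, red where the adjusted p was under 0.05. ID3 and BAMBI are red in all 3 comparisons of DES with its matched group, ID3 also in calcium against cadmium, SMAD6 in the comparisons of calcium and of DES with control, and ID1 and ID2 only in DES with calcium against calcium.

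Counted over the 5 tested genes, the libraries of DES and control did not overlap for 4 genes, with ID1 the exception, where 48.8% of all genes did not overlap. For DES with calcium and calcium alone they did not overlap for any of the 5 (50.8% of all genes), though for ID3 only by the narrow margin given above. For DES with cadmium and cadmium alone they were apart for 2, ID3 and BAMBI (40% of all genes). Calcium and control were apart for ID3, SMAD6 and BAMBI (29.6%), cadmium and control for BAMBI (34.4%) and GSK4716 and control for SMAD6 (22.1%). Of the comparisons within the treated groups, calcium and cadmium were apart for ID3 (29.4%), DES with calcium and DES for ID2 (19.9%), and DES with cadmium and DES for 0 of the 5 (16.2%).

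Summed within each library, the ID transcripts were higher with DES than in control, and ID3 made up more of them. The sum was 61.6 ± 13.0 FPKM in control (SD, n = 3) and 125 ± 20.2 FPKM with DES. It was 185 ± 49.0 FPKM where calcium followed DES and 105 ± 40.0 FPKM where cadmium did. The groups without DES other than the control had means of 63.9 to 70.0 FPKM. The library size behind these FPKM was not the total of fragments on genes, being 1.08 to 1.15 times that total in control, 0.908 to 1.05 times with DES and 0.693 to 0.96 times with DES and cadmium, which raises the latter relative to control. Put on total fragments, an alternative added after the values had been seen, the sums were 69.4 ± 16.4 FPKM in control, 124 ± 20.7 FPKM under DES alone, 166 ± 39.7 FPKM where calcium followed it and 86.5 FPKM (range 62.4 to 100.4) where cadmium did. ID2 made up 78.4% of the sum in control and 54.6% with DES, while ID3 went from 9.79% to 36.7%. With calcium alone ID3 made up 31.2%, at a sum of 70.0 ± 23.1 FPKM. With cadmium and GSK4716 ID2 made up 86.1% and 88.2%.

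The ratio of ID3 to ID2 does not depend on how a library is scaled. It was 0.096 to 0.165 in the control libraries, 0.394 to 0.661 with calcium and 0.506 to 0.954 with DES. Cadmium gave 0.0844 to 0.0905 and GSK4716 0.0583 to 0.139. DES with calcium ranged from 0.356 to 0.514 and DES with cadmium from 0.300 to 1.49, so the ratio was above the highest control in every library with calcium or with DES. With groups of 3, the smallest p of an exact two-sided permutation test is 0.1, and these sums and ratios were not tested.

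Summed, the genes of the partners of ID proteins differed less. TCF3, TCF4 and TCF12 together stood at 38.6 ± 2.15 FPKM in control and at 30.0 ± 2.85 FPKM with DES; neither of the 2 that passed the filter, TCF3 and TCF12, was called in any comparison. TCF4 added little to that sum and was under the filter, with 46, 24 and 20 fragments in control and 141, 171 and 92 with cadmium, a log2 fold change of 1.30 in a fit without the filter (unadjusted p = 0.0257, adjusted p = 0.448). The ID sum divided by that of the E protein genes was 1.60 ± 0.37 in control and 4.21 ± 1.01 with DES. It was 6.39 ± 1.74 where calcium followed DES and 3.66 ± 1.59 where cadmium did. In the groups without DES its mean was 1.60 to 2.04. These are ratios of transcript levels, not of protein.

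**Figure D3:**
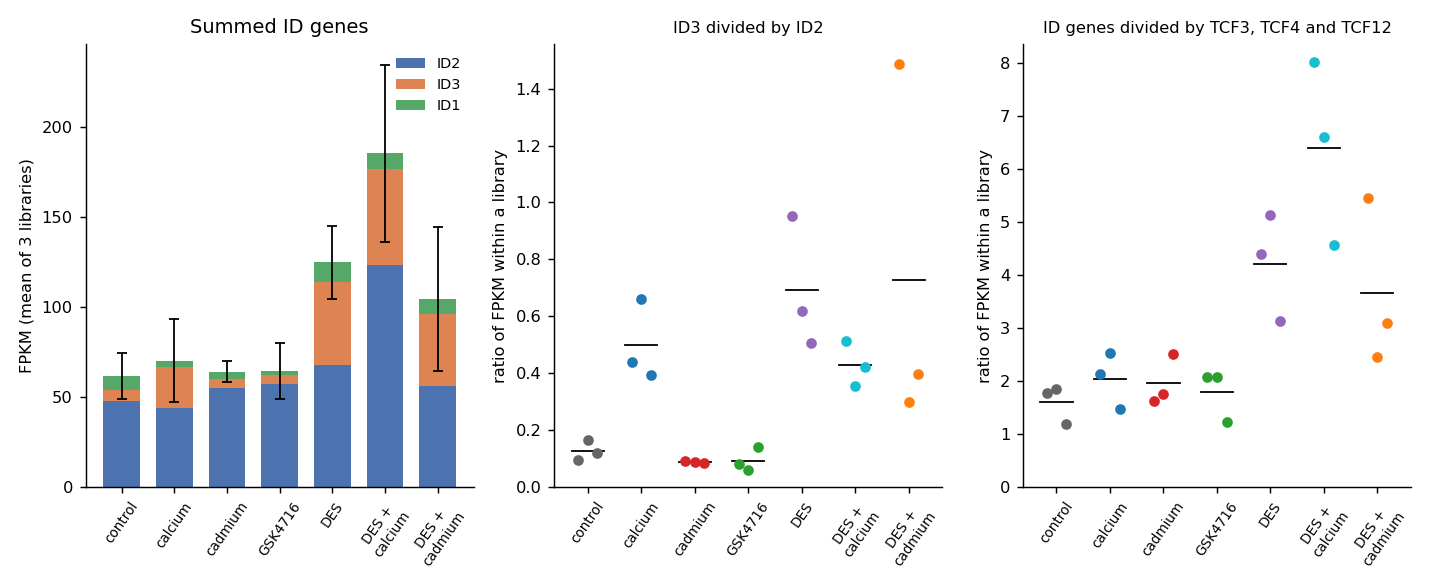
Left, mean FPKM of ID2, ID3 and ID1 stacked for each group, with bars of 1 SD of their sum over 3 libraries; middle, ID3 divided by ID2 in each library; right, the summed ID genes divided by the summed TCF3, TCF4 and TCF12 in each library, with lines at group means. The ratio of ID3 to ID2 is above control with calcium and in all groups with DES, and the ratio to E protein genes is 2.45 to 8.01 in the libraries with DES and 1.18 to 2.53 in those without, which overlap.

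The 2 feedback genes moved in opposite directions with DES. BAMBI (ENSG00000095739, chromosome 10, 28677342 to 28682939, plus strand) was at 31.3, 22.2 and 27.4 FPKM in control and at 76.3, 71.9 and 54.2 FPKM with DES. This was a 2.5-fold rise (log2 fold change 1.32, SE 0.20, adjusted p = 0.00495). DES with calcium gave 105, 74.6 and 66.1 FPKM and DES with cadmium 85.0, 67.9 and 86.2 FPKM. All 9 libraries with DES thus lay above all 12 without, as was so for 4.14% of the 14686 genes; BAMBI was the only one of the 6 genes separated in this way.

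BAMBI was higher with DES at each metal. Against calcium alone, at 35.4, 43.1 and 41.5 FPKM, it was 2.01-fold higher (log2 fold change 1.01, SE 0.20, adjusted p = 0.0113). With it ID1, ID2 and ID3 rose too, so that 4 of the 5 genes were called higher, against 18.5% of all genes called higher and 35.1% called in either direction. That split of all genes, 2722 higher and 2426 lower, was 2232 and 3636 with limma-voom, which uses total fragments, and the 4 genes were called higher there too, with SMAD6 called lower. Against cadmium alone, at 35.2, 45.7 and 36.6 FPKM, it was 2.03-fold higher (log2 fold change 1.02, SE 0.22, adjusted p = 0.0408), and BAMBI and ID3 were the genes called there, against 9.89% of all genes. The cadmium call was lost with any of the 6 libraries left out (adjusted p 0.0539 to 0.166) and when libraries were scaled by all fragments on genes: BAMBI then stood at 0.69 (adjusted p = 0.0876) beside a median of all genes of -0.39.

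Without DES, BAMBI differed less from control, and no difference was called. The calcium libraries and the cadmium libraries all lay above the controls, by log2 fold changes of 0.58 (95% interval 0.19 to 0.97, adjusted p = 0.0895) and 0.54 (interval 0.11 to 0.97, adjusted p = 0.135). With GSK4716 it was at 32.5, 38.6 and 21.4 FPKM, a log2 fold change of 0.17 (interval -0.43 to 0.77). Adding a metal to DES changed it by 0.27 (interval -0.29 to 0.82) for calcium and 0.25 (interval -0.30 to 0.80) for cadmium.

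SMAD6 (ENSG00000137834, chromosome 15, 66702228 to 66782848, plus strand) was highest in the controls, at 5.82, 8.69 and 4.81 FPKM. DES lowered it to 2.79, 2.03 and 2.67 FPKM (log2 fold change -1.30, SE 0.26, adjusted p = 0.0124), and calcium to 2.80, 2.99 and 2.27 FPKM (log2 fold change -1.20, SE 0.25, adjusted p = 0.0477). It was the only one of the 5 genes called with calcium, against 7.12% of all genes. The call with calcium was lost with any of the 6 libraries left out (adjusted p 0.0532 to 0.161), while the call with DES was kept with any library left out (0.0161 to 0.0477) and lost in a fit without the filter on low values (0.0839).

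Cadmium and GSK4716 gave intermediate levels of SMAD6. They were 4.86, 3.96 and 1.28 FPKM with cadmium and 4.01, 4.30 and 2.62 FPKM with GSK4716, so that cadmium replicate 1 alone of the 18 treated libraries reached the lowest control. Neither passed the test, with log2 fold changes of -1.07 (adjusted p = 0.245) and -0.79 (adjusted p = 0.26). In the cadmium comparison limma called 0.15% of all genes and none of the 5. By limma-voom 455 genes were called, again none of the 5. BAMBI was the 1 of the 5 with an unadjusted p under 0.05 by limma, as were 25.9% of all genes. The lowest levels came with DES and calcium, at 1.76, 1.04 and 2.06 FPKM. This was below every calcium library, by a log2 fold change of -0.74 (95% interval -1.48 to 0.00282, adjusted p = 0.108). By limma-voom it was -1.02 and was called (adjusted p = 0.0205). DES with cadmium was at 2.18, 2.20 and 3.05 FPKM, within the range of cadmium alone; DES with cadmium against DES called 0.266% of all genes and none of the 5 (limma; none with limma-voom), and at an unadjusted p under 0.05 it held 10.4% of all genes and none of the 5.

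The ratio of BAMBI to SMAD6 covered a wide range. BAMBI divided by SMAD6, in FPKM, was 2.55 to 5.69 in control, 12.6 to 18.2 with calcium and 8.11 to 8.97 with GSK4716. The DES libraries had 20.3 to 35.5. Adding calcium to DES gave 32.0 to 71.9 and adding cadmium gave 28.3 to 39.0. All treated libraries therefore exceeded every control, cadmium included, at 7.24 to 28.6. SMAD6 overlaps AC013564.1 on the same strand, listed at no more than 0.647 FPKM.

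Neither interaction term was called for any of the 5 genes in a fit without a replicate block. With the block the calcium term was called for ID2 (adjusted p = 0.0495) and ID3 (adjusted p = 0.0411). The calcium term called 3.63% of all genes and the cadmium term 1.18%. For calcium, ID2 and ID3 had unadjusted p under 0.05, as did 19.9% of all genes; for cadmium none of the 5 did, and 18.5% of all genes did. With limma-voom, none of the 5 was called in either, while 553 of all genes were called for the calcium term and 43 for the cadmium term. The cadmium term of SMAD6 was 1.05 (95% interval -0.27 to 2.37) and that of BAMBI -0.30 (interval -0.94 to 0.35).

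The rest of the pathway was read from a list of 55 other genes, 3 of them the E protein partners of ID proteins and the others genes of BMP signaling, of which 22 passed the filter, TCF3 and TCF12 among them. Most genes of secreted parts were under it in these cells: 1 of 11 ligands (BMP4) and 2 of 12 extracellular antagonists or modulators passed. Of receptors or co-receptors 5 of 11 passed, as did 4 of 5 SMAD genes and 7 of 8 intracellular regulators. Of the 33 under the filter, none was called in a fit without it, a fit in which fewer members were called too. Some of them still differed in fragments: RGMA, a BMP co-receptor, had 1, 5 and 0 fragments in control and 128, 147 and 355 with DES (unadjusted p = 0.00311, adjusted p = 0.0718). BMPR1A, a type I receptor, was at 0.54, 0.46 and 0.46 FPKM in control and at 0.21, 0.18 and 0.22 FPKM with DES (adjusted p = 0.125). Neither overlapped between these groups, as was so for 48.8% of the genes that passed the filter. With DES against control 3 of the 22 rose and 5 fell, that is 36.4% against the 29.6% of all genes, with a median log2 fold change of -0.15 beside 0.05 over all genes. In place of these 8 calls there was 1 without control replicate 1, 2 without control replicate 2, 3 without control replicate 3 and 4 without DES replicate 2.

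The list members called higher with DES were a receptor, a co-receptor and a target. ACVR2A, a type II receptor, went from 1.19, 1.20 and 1.23 FPKM to 2.00, 6.14 and 4.86 FPKM (log2 fold change 1.62, SE 0.40, adjusted p = 0.0248). RGMB, a BMP co-receptor, rose by 0.82 (adjusted p = 0.0375) and MSX2, a homeobox gene induced by BMP, by 0.79 (adjusted p = 0.02). Intracellular regulators made up 4 of the 5 that fell. SKI, a corepressor that binds SMAD proteins, fell from 12.7, 14.6 and 14.6 FPKM to 5.86, 6.37 and 5.95 FPKM (log2 fold change -1.19, SE 0.14, adjusted p = 0.00229). TOB1, an antiproliferative protein that represses BMP signaling through SMAD proteins, changed by -1.07 (adjusted p = 0.0123), and the type II receptor gene BMPR2 went from 6.59, 6.81 and 6.73 FPKM to 2.32, 3.79 and 4.08 FPKM (adjusted p = 0.0211). SMURF1 and SMURF2, ubiquitin ligases that mark SMAD1 and SMAD5 for degradation, were the other 2.

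In calcium, DES raised 2 and lowered 5 of the 22 genes (31.8% against 35.1% of all genes). ACVR2A (1.23 on the log2 scale) and MSX2 (0.64) were again higher and SMURF1 (-1.81), TOB1 (-1.43) and SKI (-1.41) lower. In place of these 7 calls there were 4 without calcium replicate 1 and 4 without each of the 3 libraries of DES with calcium. In cadmium it raised ACVR2A (1.60, adjusted p = 0.0461) and lowered SKI (-1.51, adjusted p = 0.0439), or 9.09% against 9.89%; with any of the 6 libraries left out 0 or 1 of the 22 was called. These shares were near those of all genes in both comparisons. Calcium against control gave 1 call: SMAD7, the other inhibitory SMAD, went from 4.62, 4.31 and 4.74 FPKM to 2.06, 2.64 and 2.09 FPKM (log2 fold change -0.99, SE 0.17, adjusted p = 0.0282), the same direction as SMAD6. Like that of SMAD6, this call was lost with any of the 6 libraries left out, and in a fit of all 7 groups together. With DES alone SMAD7 stood at 4.95, 6.23 and 6.57 FPKM and was not called, whereas SMAD6 fell. In the remaining 7 comparisons, interactions included, none of the 22 was called, although 2 were in cadmium against control without cadmium replicate 1 and 1 was in the interaction of cadmium and DES without DES with cadmium replicate 2. SMAD1, SMAD5 and SMAD4, which carry the signal, were called in no comparison. With cadmium SMAD1 was nevertheless at 0.864 to 1.77 FPKM, below its 2.31 to 2.70 FPKM in control. SMAD5 was at 6.57 to 9.46 FPKM with cadmium, above its 4.68 to 6.20 FPKM in control. Such a lack of overlap was seen for 34.4% of all genes, and SMAD4 did overlap.

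**Figure D4:**
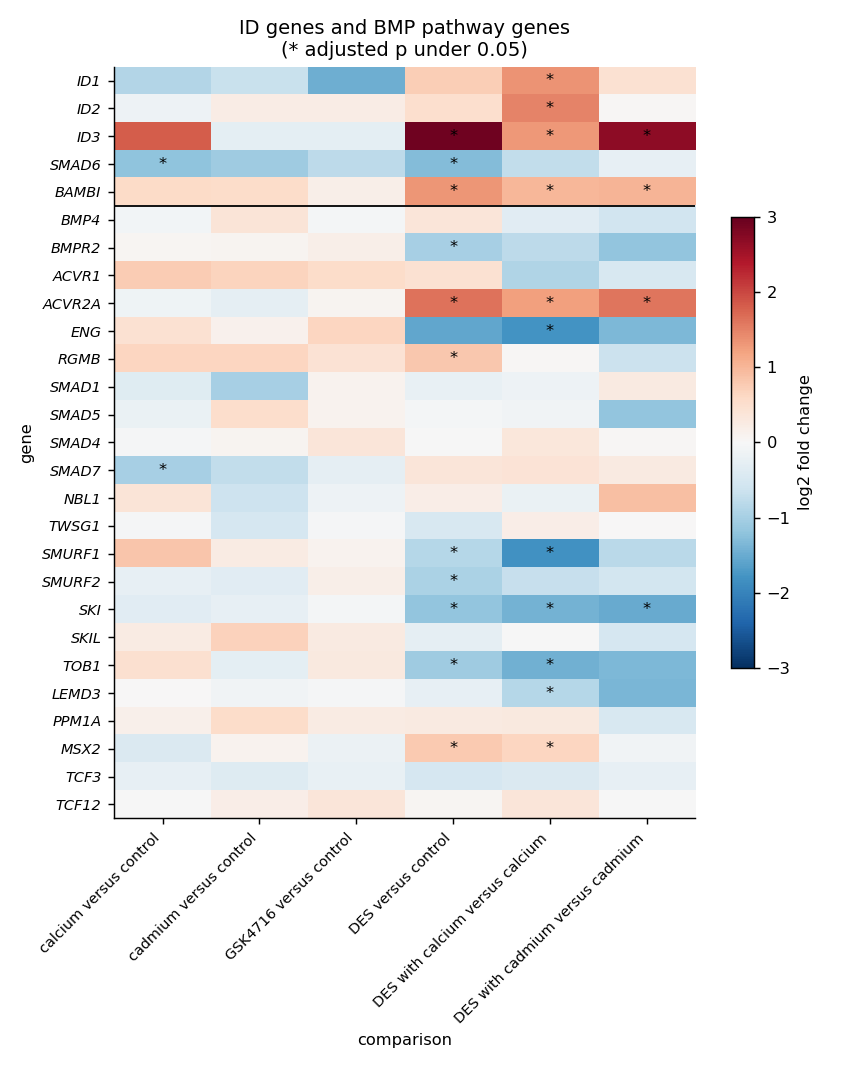
Log2 fold changes (color, from -3 in blue to 3 in red) of the 5 tested genes, above the line, and the 22 tested genes of the wider list, TCF3 and TCF12 included, below it, in 6 comparisons (columns), with an asterisk where the adjusted p was under 0.05. The asterisks of ID3, BAMBI, ACVR2A and SKI run through all 3 columns of DES, and the columns of cadmium and GSK4716 against control hold none.

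Likeness to each gene was measured by Pearson's r of log2(FPKM + 0.1) over the 21 libraries, among 12240 genes with a mean of at least 1 FPKM. These libraries share treatments, and many genes moved with DES, so the coefficients describe a pattern and carry no p. ID3 was most like JPT1 (0.967), AC067931.1 (0.953) and PVT1 (0.948), and SMAD6 most like CCNF (0.945), MAFG-DT (0.898) and AC106738.2 (0.889). BAMBI was most like BAG1 (0.908), HIST1H1C (0.907) and AC008894.3 (0.907). For ID1 the nearest were EXOSC2 (0.834), ZW10 (0.833) and CNIH2 (0.829), and for ID2 SREBF2-AS1 (0.843), CCNH (0.841) and GTF2F2 (0.834).

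Among the members themselves the closest pair was ID3 and BAMBI (r = 0.82 over the 21 libraries). With each value taken relative to its group mean, r was 0.26. ID1 and ID3 had r = 0.61 over all libraries and 0.70 relative to the group means. Both genes ranged most widely in DES with cadmium, whose replicate 2 was the lowest of that group for each (1.11 and 14.7 FPKM). The part of that group in this r was not tested. With calcium the library highest for ID3 (replicate 2, 36.2 FPKM) was not the highest for ID1. SMAD6 ran against BAMBI (r = -0.61) and ID3 (r = -0.56) over the 21 libraries; relative to the group means these were 0.15 and 0.04.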

How the data were processed

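RNA-seq libraries were poly-A selected. The deposited values are FPKM per gene, made by the authors from reads aligned with HISAT2 2.0.5 to GRCh38.p14 and counted with featureCounts 1.5.0-p3, per the submitters' processing notes; FPKM is relative to gene length and to a library size that was 0.693 to 1.15 times the total of fragments on genes. FPKM times gene length gave whole fragments for 100% of values (tolerance 0.02), so depth was recovered. Library groups came from the sample labels, and 0 columns of samples were unused.

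Comparisons were fitted with limma 3.58.1 (R 4.3.3; eBayes with trend, two-sided) on log2(FPKM + 0.1) over 14686 genes, with the compared groups only and Benjamini-Hochberg adjustment over all genes. A gene was called at an adjusted p under 0.05. Fold changes on this scale understate changes of low genes. The scripts were tested on simulated data. The members and gene lists were chosen with earlier results of these data known. Named pathway genes were up to 3 called rises and 3 called falls of largest size in each comparison with a mean of at least 1 FPKM; SMURF2, SMAD1, SMAD4, SMAD5, RGMA, BMPR1A and TCF4 were named after their values were seen.

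The labels do not say what a shared replicate number marks. Same-numbered libraries deviated together, every correlation being over 0.1, only for DES with calcium against DES (0.103 to 0.280) and DES with cadmium against DES (0.121 to 0.472). Alternatives were a pseudocount of 1, other filters (none, or 2 FPKM), 2 other scalings, all groups in 1 fit, a replicate block, limma-voom on the recovered fragments, and each library left out.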

Additional observations from a re-analysis of the deposited data

How the results depend on the processing

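Of 440 log2 fold changes of the 5 tested genes recomputed under alternatives other than leaving out a library, 410 kept their direction and side of the threshold. Most of the 440 were refits of differences that were not called. A call was lost in 18 and gained in 7, and the sign turned in 5. Numbers of members called moved as follows. For calcium against control (1 called), there were 0 without the filter, 2 with a filter at 2 FPKM and 2 with limma-voom. For DES with calcium against calcium (4 called), there were 0 without the filter; ID3 was lost when scaled by total fragments (adjusted p = 0.0706) and ID1 with all 7 groups in 1 fit (0.146), and SMAD6 was gained with limma-voom (0.0205). For DES with cadmium against cadmium (2 called), there were 0 without the filter, 1 when scaled by total fragments, and 1 with limma-voom. For calcium against cadmium (1 called), there were 0 without the filter. The cause of these moves was not tested. Beyond the filter, ID3 in calcium against control passed with all 7 groups in 1 fit (adjusted p = 0.0294), where SMAD6 did not (0.086). With DES against control, SMAD6 was lost without the filter (0.0839) and ID3 and BAMBI passed under all 8 alternatives.

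With the replicate block, the members called were 0 for DES with cadmium against cadmium and 0 for calcium against cadmium, and 2 for the interaction of calcium and DES (ID2, adjusted p = 0.0495, and ID3, 0.0411). In calcium against control the block called ID3 (0.0439) and lost SMAD6 (0.0732). Where the numbers paired the libraries, for both metals on top of DES, the block changed no call of a member.

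Signs turned only for differences that were not called. By scaling or limma-voom these were SMAD6 in DES with cadmium against DES (0.0054 with median-ratio scaling), ID2 in DES with cadmium against cadmium (-0.31 by total fragments, -0.32 with limma-voom) and BAMBI in calcium against cadmium (-0.0251 by total fragments, -0.0319 with limma-voom). Scaled by total fragments, the median of all genes lay at -0.12 to -0.39 in 7 fits.

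With each library left out, members called ranged from 0 to 0 for calcium against control, 3 to 4 for DES against control, 2 to 3 for DES with calcium against calcium, 0 to 1 for DES with cadmium against cadmium and 0 to 0 for calcium against cadmium, and stayed at 0 in the rest. Of 390 log2 fold changes with a library left out, 31 lost a call and 1 gained a call. Signs turned in 25 of the 390. The ranges were -0.0163 to 0.41 for BAMBI in GSK4716 against control, -0.32 to 0.0492 for ID2 in calcium against control and -0.0499 to 0.43 for ID3 in DES with calcium against DES. In calcium against cadmium they were -0.0362 to 0.15 for BAMBI, -0.52 to 0.0421 for ID1 and -0.69 to 0.23 for SMAD6. In DES with cadmium against DES they were -1.56 to 0.17 for ID1, -1.18 to 0.0250 for ID3 and -0.17 to 0.0681 for SMAD6. In DES with cadmium against cadmium they were -0.16 to 1.57 for ID1, -0.10 to 0.12 for ID2 and -0.82 to 0.11 for SMAD6. For the interaction of cadmium and DES they were -0.90 to 0.83 for ID1 and -0.89 to 0.31 for ID3.

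Of the 22 genes of the wider list, calls moved from 1 to 0 (each library left out, the replicate block, all 7 groups in 1 fit, no filter) or 2 (a filter at 2 FPKM, limma-voom) for calcium against control, from 8 to 2 without the filter, 5 with the replicate block and between 1 and 4 without control replicate 1, 2 or 3 or DES replicate 2 for DES against control, from 7 to 1 without the filter and 4 without calcium replicate 1 or any library of DES with calcium for DES with calcium against calcium, from 2 to between 0 and 9 for DES with cadmium against cadmium, from 0 to 1 for calcium against cadmium, from 0 to 2 for cadmium against control without cadmium replicate 1, and from 0 to 1 for the interaction of cadmium and DES without DES with cadmium replicate 2. With 3 libraries a group and ID1 at 33 to 367 fragments in the groups compared with control, its differences from control had intervals over 2 log2 units wide.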
